A study of Homo sapiens with 4 samples.

Results

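The genes of cholesterol and fatty acid synthesis were followed in BEAS-2B cells, a long-established human line from the epithelium of the bronchus, through exposure to lipopolysaccharide (LPS) and to a peptide made from a PDZ motif of the tight junction protein ZO-1. The group comprised 36 genes of the 24424 gene symbols in the count files. They were chosen by a list of sterol and lipid synthesis genes together with their SREBP and LXR regulators, and all 36 were in all 4 files. By role, 7 genes belonged to the mevalonate pathway, 11 to the squalene and sterol steps, 6 to SREBP regulation and sterol transport, 7 to fatty acid synthesis and 5 to the LXR receptors and their targets. The list was a selection, and some enzymes of these pathways were not on it.

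RNA was sequenced from untreated cells (Control), from cells given LPS for 2 hr (LPS), and from cells given the wild-type (WT PDZ+LPS) or the mutant peptide (mut PDZ+LPS) for 24 hr before 2 hr of LPS. All cells had the wild-type genotype and grew in the same bronchial epithelial medium. Both peptides carry a TAT stretch for entry into cells and a FITC tag, and the mutant has alanines in place of a pair of glycines. The peptide and LPS concentrations for these cells are not given in the sources used here, and no library received a peptide without LPS. Each condition had 1 library, so nothing below could be checked against replicates or tested.

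Cells build cholesterol from acetyl-CoA through mevalonate, squalene and lanosterol, and build fatty acids from the same precursor by carboxylation, chain synthesis, elongation and desaturation. When membrane sterol is low, SCAP escorts the SREBP transcription factors (SREBF1 and SREBF2) from the endoplasmic reticulum to the Golgi, where they are cut and released to switch on both pathways, while INSIG proteins hold SCAP back when sterol is plentiful. Oxysterols that accumulate with cholesterol activate the LXR receptors, which induce the efflux pumps ABCA1 and ABCG1 and the ubiquitin ligase MYLIP. In airway epithelium these lipids serve membranes, and they are raw material for surfactant in the alveolus.

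The start-site windows of 4 members are shown because SREBF2 and ABCA1 held the SREBP and LXR motifs searched, while INSIG1 and INSIG2 are paralogs that differed in the LPS comparison. Each window runs from 250 bases before to 50 bases after the RefSeq start site in GRCh38.p14, read 5′ to 3′ on the strand of the gene. Capitals mark the motifs, which were searched on both strands. SREBF2 lies at chr22:41832855-41833154 (plus strand), ABCA1 at chr9:104928106-104928405 (minus strand), INSIG1 at chr7:155297628-155297927 (plus strand) and INSIG2 at chr2:118088221-118088520 (plus strand).
SREBF2: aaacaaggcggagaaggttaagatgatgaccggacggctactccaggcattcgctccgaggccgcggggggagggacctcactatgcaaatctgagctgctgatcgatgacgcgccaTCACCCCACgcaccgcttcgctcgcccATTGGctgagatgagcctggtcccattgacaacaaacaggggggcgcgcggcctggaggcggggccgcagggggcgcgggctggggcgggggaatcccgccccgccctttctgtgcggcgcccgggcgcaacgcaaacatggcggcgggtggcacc
ABCA1: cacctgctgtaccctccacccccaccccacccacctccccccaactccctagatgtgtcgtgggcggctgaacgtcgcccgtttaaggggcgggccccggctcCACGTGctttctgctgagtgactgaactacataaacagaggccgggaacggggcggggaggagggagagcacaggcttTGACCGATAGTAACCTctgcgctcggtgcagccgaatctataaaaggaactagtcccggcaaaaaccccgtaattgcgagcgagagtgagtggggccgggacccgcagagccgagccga
INSIG1: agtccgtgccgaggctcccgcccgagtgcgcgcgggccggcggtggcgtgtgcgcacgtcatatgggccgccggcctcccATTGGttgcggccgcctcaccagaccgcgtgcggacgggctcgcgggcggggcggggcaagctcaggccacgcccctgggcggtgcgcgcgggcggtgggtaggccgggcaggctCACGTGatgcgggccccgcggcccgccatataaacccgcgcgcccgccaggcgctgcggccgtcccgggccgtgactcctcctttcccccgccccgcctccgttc
INSIG2: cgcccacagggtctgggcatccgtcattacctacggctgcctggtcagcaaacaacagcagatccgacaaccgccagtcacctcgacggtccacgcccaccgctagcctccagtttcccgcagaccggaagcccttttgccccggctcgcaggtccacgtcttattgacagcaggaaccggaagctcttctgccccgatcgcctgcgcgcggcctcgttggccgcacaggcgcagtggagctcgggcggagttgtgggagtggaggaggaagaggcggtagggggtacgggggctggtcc

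Windows were found for 31 of the 36 members, and were missing for FDFT1, ABCG1, FASN, ACAT2 and SQLE. The sterol regulatory element TCACNCCAC was in 1 of the 44 member windows, that of SREBF2, where it begins 133 bases before the start site. That is 2.27% of the member windows against 1.13% of all 35116 windows. The CCAAT box, a binding site of NF-Y, which works beside SREBP, was in 26 member windows of 22 genes (59.1%), against 34.6% of all windows. In SREBF2 and INSIG1 it is on the minus strand and reads ATTGG. The LXR motif was taken as 2 copies of AGGTCA in the same direction 4 bases apart with up to 2 mismatches, and was in ABCA1 alone among the members, 69 bases before the start site on the minus strand, or 2.27% of member windows against 2.34% of all. The E-box CACGTG was in 6 member windows of 5 genes, SCAP, INSIG1, ABCA1, SC5D and LSS (13.6% against 7.26% of all windows). None of these motifs overlapped in the windows shown, and the INSIG2 window held none of them. A match describes letters in a window and is not a measured binding site.

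The libraries held 19682929 to 25155647 counts. Counts were divided by size factors of 1.15, 1.06, 0.990 and 0.851 for Control, LPS, WT and mut PDZ+LPS, and log2 fold changes used these normalized counts plus 1. Their 95% intervals are exact binomial (Clopper-Pearson) intervals that compare 2 libraries. They cover counting error only, because each condition had 1 library. Without molecular identifiers reads cannot be taken as separate molecules, so the intervals may be too narrow even for that error. In these bulk libraries, fewer cells with a transcript and less of it per cell cannot be told apart. The NF-kB targets CXCL8, NFKBIA and TNFAIP3 were 28.7-fold, 7.88-fold and 20.7-fold higher in LPS than in Control. All 6 epithelial markers listed had at least 16 normalized counts in every library (summed level 67438 to 93969), whereas 0 of 5 secretory or ciliated markers did (19.1 to 41.4), and SCGB1A1 and FOXJ1 were at 0. Of the other cell types, 2 of 6 leukocyte markers did (CD14 and CD68, in a summed level of 731 to 897, with PTPRC at 0), 0 of 3 endothelial (5.87 to 14.1) and 2 of 4 fibroblast markers (403 to 545, with COL3A1 at 0). The mut PDZ+LPS library had the highest epithelial and leukocyte sums, and their part in the results was not tested.

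BEAS-2B cells expressed nearly the whole group, and several members stood among their most abundant transcripts. A mean of 16 or more normalized counts, which is 4 on the log2 scale, was reached by 35 of the 36 members. ABCG1, a pump that passes cholesterol to lipoproteins, was the exception with 12, 5, 8 and 5 raw counts in Control, LPS, WT and mut PDZ+LPS. The median of the members' mean normalized counts was 4482, against 715 over all 13072 genes that reached the minimum. Together the members took 1.17% of all counts in Control (1.16% to 1.17%), 1.07% in LPS and 1.11% in WT PDZ+LPS, against 0.907% (0.903% to 0.911%) in mut PDZ+LPS. The fatty acid synthesis genes accounted for 0.642%, 0.576%, 0.604% and 0.454% of all counts in the same order of libraries.

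Levels between genes were compared as TPM, which scales counts by transcript length and by the library's total, computed from the counts and the longest coding transcript in GENCODE 29. In Control the highest members were SCD, which introduces the double bond into saturated fatty acids, at 853 TPM, and FASN, the fatty acid synthase, at 745 TPM, and both were among the top 185 of 18503 genes. FADS2 and FADS1, the desaturases of polyunsaturated fatty acids, followed at 603 and 476 TPM. FDPS at 490, FDFT1 at 485, CYP51A1 at 482 and HMGCS1 at 462 TPM lay close to FADS1, and their order cannot be fixed without replicates. The lowest members above the minimum in Control were ABCA1 at 3.02, NR1H3 at 11.6 and MYLIP at 12.2 TPM. The other LXR receptor, NR1H2, was at 76.2 TPM, above the enzymes HSD17B7 (69.4), ACACA (65.4), MVK (52.8) and PMVK (48.8). The number of members among the 1000 genes with the highest TPM was 17, 15, 15 and 16 in Control, LPS, WT and mut PDZ+LPS. In the plot of normalized counts, ABCA1 and INSIG2 lie apart from their Control point in the LPS-treated libraries, and each fatty acid gene is lowest in mut PDZ+LPS.

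**Figure D1:**
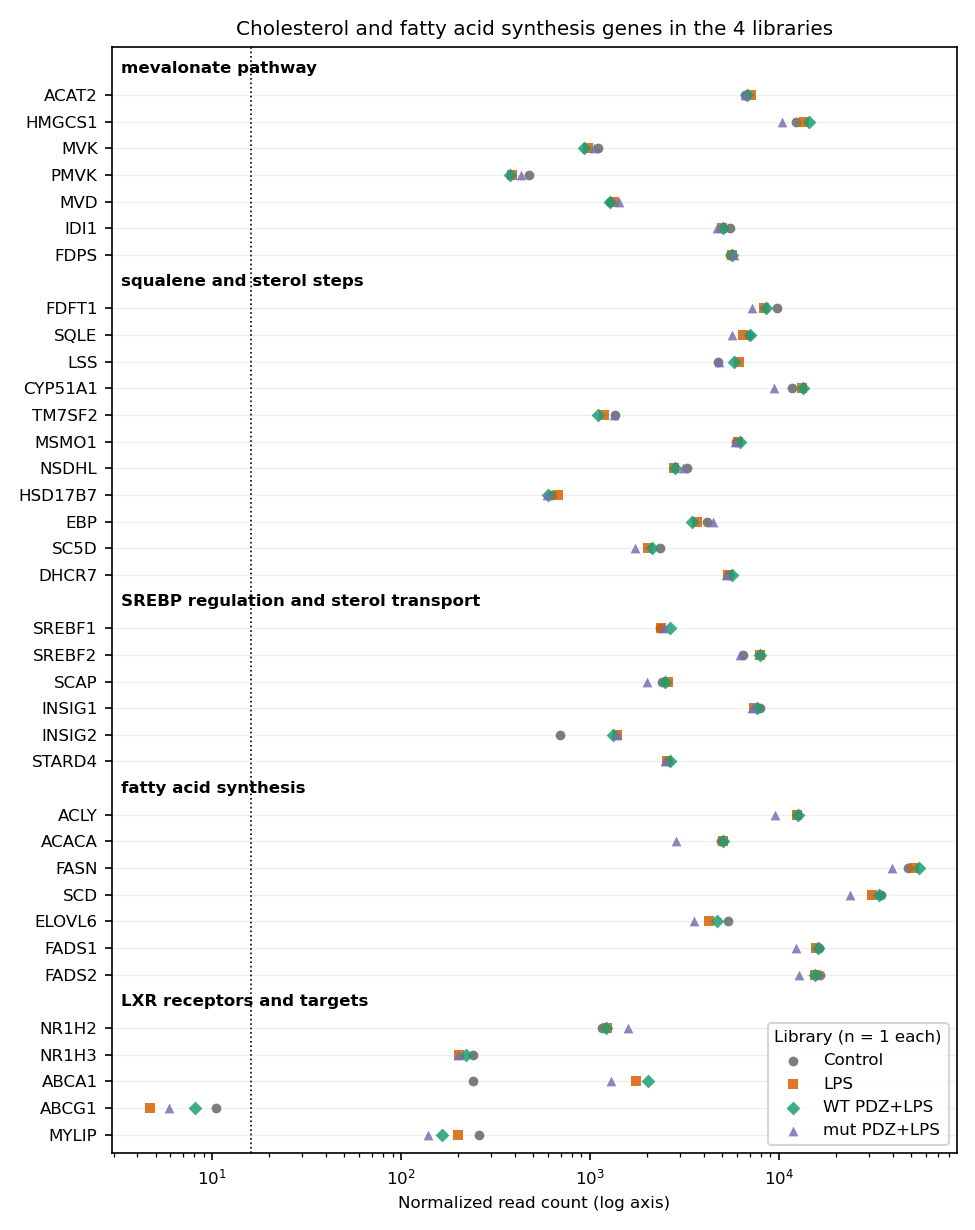
Normalized read count of each of the 36 members (log axis) in the 4 libraries (1 point per library), grouped by role, with a dotted line at 16 normalized counts. ABCA1 (240.2 in Control, 1759 in LPS) and INSIG2 (692 and 1382) are separated from their Control point in all LPS-treated libraries, and ABCG1 lies under the line.

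In LPS/Control, most members differed little, while ABCA1 and INSIG2 were higher. A gene was called at a difference of at least 2-fold with at least 16 normalized counts in at least one of the 2 libraries. By this rule 1 member was higher (ABCA1) and 0 were lower, against 3.46% higher and 1.41% lower of all 13277 genes that met the count rule. At 1.5-fold 2 members were higher (ABCA1 and INSIG2) and 0 lower, against 6.71% and 4.77% of all genes. The median log2 fold change of the 35 members was -0.01, with 16 higher and 19 lower. That of all genes was -0.0010, and 49.8% of them were higher. Of the members, 28 (80.0%) lay within 0.25 of 0 on the log2 scale, against 68.0% of all genes, which had lower counts as given above. Counting intervals lay above 0 for 9 members, below 0 for 15 and included 0 for 11. Intervals are narrower for genes with more counts, as the members had, and the share of all genes was not computed.

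ABCA1, the pump that loads cholesterol onto lipid-poor apolipoprotein, had 240.2, 1759, 2019.6 and 1285 normalized counts in Control, LPS, WT and mut PDZ+LPS. All 3 LPS-treated libraries were far above Control. Its log2 fold change in LPS/Control was 2.87 (2.69 to 3.06), a ratio of 7.30. Its TPM went from 3.02 to 20.5, which moved its rank among all genes from 10446 to 6808. Against Control it was 3.07 on the log2 scale in WT PDZ+LPS, as against 2.42 in mut PDZ+LPS, and these 3 comparisons share the Control library. In LPS it was still below the lowest synthesis enzyme, PMVK, at 36.8 TPM.

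The other LXR genes did not share this difference. NR1H3, the LXR receptor best known from liver and macrophages, had 240.2, 202, 220.1 and 201 normalized counts in Control, LPS, WT and mut PDZ+LPS, and its interval in LPS/Control included 0 (log2 -0.25, -0.51 to 0.01). It happened to have the same 276 raw counts in Control as ABCA1. NR1H2, the broadly expressed LXR receptor, had 1153, 1235, 1213 and 1587 normalized counts, with a log2 fold change of 0.10 (-0.01 to 0.21). MYLIP, the LXR-induced ligase that marks lipoprotein receptors for degradation, was highest in Control, with 259, 200.4, 165 and 139 normalized counts. Its log2 fold change in LPS/Control was -0.37 (-0.63 to -0.11), opposite in sign to that of ABCA1.

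INSIG2 was the next largest difference. Its normalized counts were 692 in Control and then 1382, 1325 and 1394 in LPS, WT and mut PDZ+LPS, so that the LPS-treated libraries lay close together and above Control. The ratio in LPS/Control was 1.996 (log2 0.997, 0.87 to 1.12), just under 2-fold, and mut PDZ+LPS/Control was just over it at log2 1.01. Its paralog INSIG1, which is itself an SREBP target, had 7897, 7364, 7705 and 7198 normalized counts and a log2 fold change of -0.10 (-0.15 to -0.06). Per length, INSIG1 stood at 346 TPM and INSIG2 at 35.3 TPM in Control, and at 300 and 65.3 TPM in LPS.

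The remaining SREBP regulators differed less. SREBF2, which encodes the SREBP form that favours sterol genes, had 6452, 7914, 7977 and 6205 normalized counts in Control, LPS, WT and mut PDZ+LPS. It was higher in LPS than in Control (log2 0.29, 0.25 to 0.34), while SREBF1, whose product favours fatty acid genes, was not separated from 0 (log2 0.02, -0.06 to 0.10). SCAP, the escort, was at 0.11 and STARD4, a soluble sterol carrier, at -0.01 on the log2 scale. The interval for SCAP lay above 0 (0.04 to 0.19), and that for STARD4 included it.

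**Figure D2:**
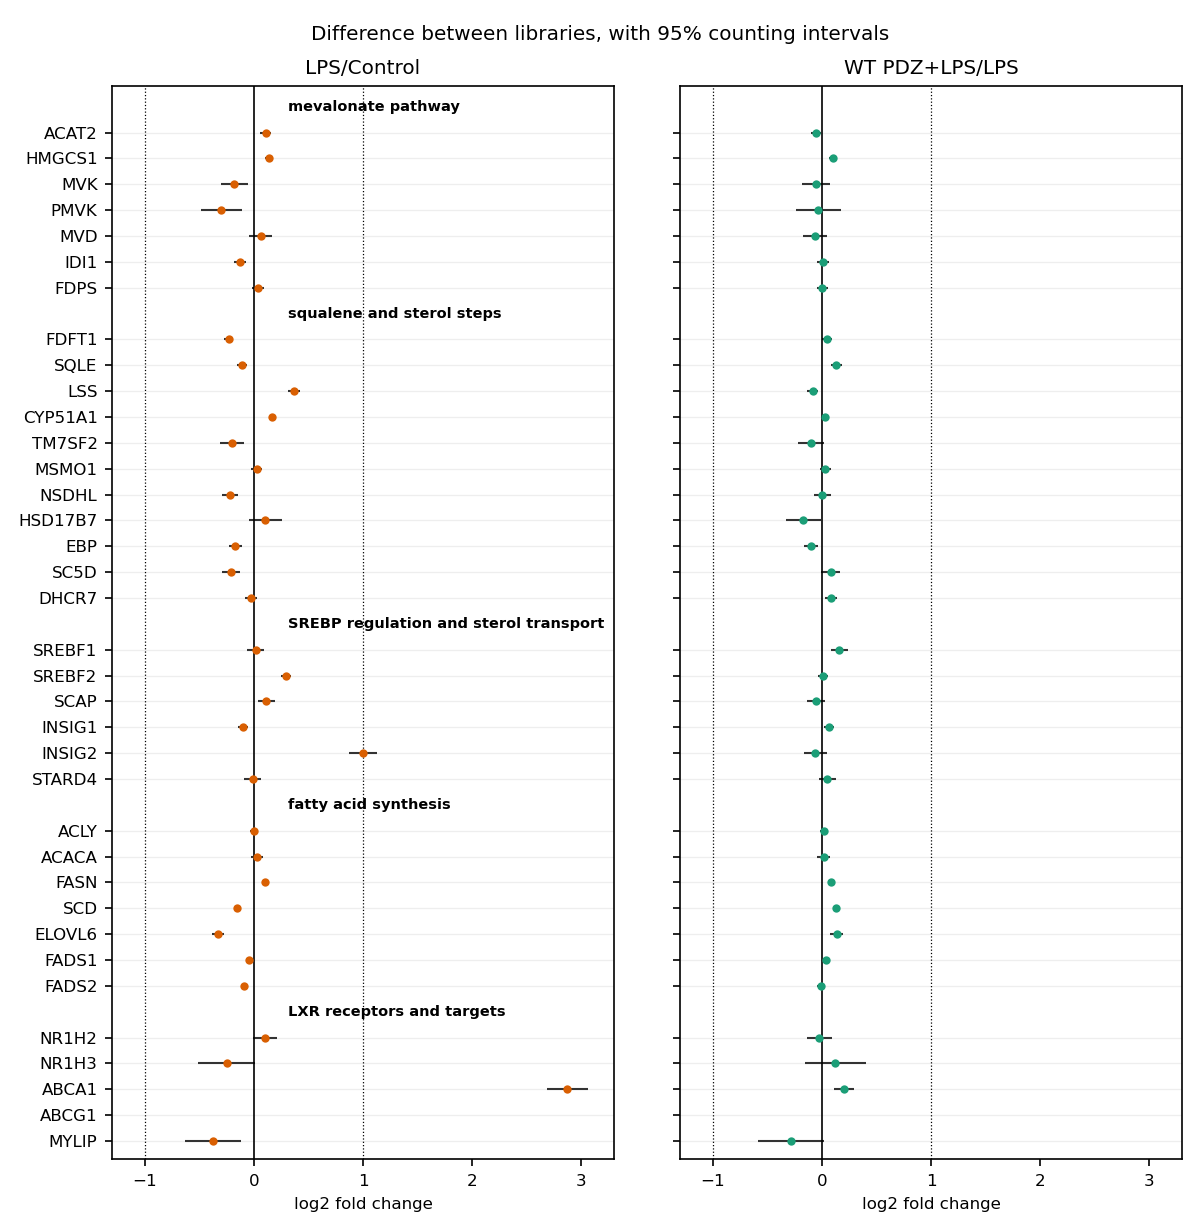
Log2 fold change of the 35 members that reached the count minimum, in LPS/Control (left) and WT PDZ+LPS/LPS (right), with lines for 95% counting intervals and dotted lines at 2-fold, 1 library per condition. ABCA1 (2.87) and INSIG2 (0.997) stand out on the left, and all members on the right lie between -0.28 and 0.20.

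In the mevalonate pathway, the median log2 fold change in LPS/Control was 0.04 over 7 genes, from -0.30 to 0.14. HMGCS1, which makes HMG-CoA, was the highest at 0.14 (0.10 to 0.17), with 12286 normalized counts in Control and 13505 in LPS. The mevalonate kinases were on the other side, with PMVK at -0.30 (-0.49 to -0.11) and MVK at -0.18 (-0.30 to -0.06). ACAT2, which condenses acetyl-CoA, stood at 0.11 and IDI1, the isomerase, at -0.13, whereas the intervals of the decarboxylase MVD (0.06) and the farnesyl diphosphate synthase FDPS (0.04) included 0.

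The squalene and sterol steps had a median of -0.11 over 11 genes, from -0.23 to 0.37. LSS, which closes the sterol rings to lanosterol, had 4748, 6122, 5773 and 4806 normalized counts in Control, LPS, WT and mut PDZ+LPS. It was higher in LPS (log2 0.37, 0.31 to 0.42), and the mut PDZ+LPS library was near Control. CYP51A1, the lanosterol demethylase, was also higher in LPS at 0.17. The enzymes just before LSS were lower, with FDFT1, the squalene synthase, at -0.23 (-0.27 to -0.19) and SQLE, the squalene epoxidase, at -0.11. Of the later steps, the dehydrogenase NSDHL (-0.22), the desaturase SC5D (-0.21), the reductase TM7SF2 (-0.20) and the isomerase EBP (-0.17) were lower with intervals below 0. The methylsterol oxidase MSMO1 (0.03), the reductase HSD17B7 (0.10) and DHCR7, the enzyme that forms cholesterol in the last step of one branch (-0.02), had intervals that included 0.

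Fatty acid synthesis had a median of -0.05 over 7 genes, from -0.33 to 0.11. ELOVL6, which elongates saturated fatty acids, had 5354, 4271, 4684 and 3564 normalized counts in Control, LPS, WT and mut PDZ+LPS. It was the member of this set with the largest difference in LPS/Control (log2 -0.33, -0.38 to -0.27), and Control lay above all other libraries. SCD was at -0.15 (-0.18 to -0.13), while FASN was at 0.11 (0.09 to 0.12). FADS1 and FADS2 stood at -0.05 and -0.09, and the intervals of ACLY, which supplies cytosolic acetyl-CoA (-0.0032), and ACACA, which makes malonyl-CoA (0.03), included 0.

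The direction of small differences in LPS/Control depended on the scaling. Total-count scaling moved the median of all genes from -0.0010 to -0.13, and over 4 scalings 6 members were higher in every one, 19 were lower in every one, and 10 changed sign. Those 10 were ACAT2, MVD, FDPS, MSMO1, HSD17B7, SREBF1, SCAP, ACACA, FASN and NR1H2, and with median-of-ratios factors none of them was more than 0.114 from 0. ABCA1, INSIG2, LSS, SREBF2, HMGCS1 and CYP51A1 were higher under each of the 4. Over the 3 LPS-treated libraries, 7 members were above Control in each, 14 below it in each and 14 on both sides. The share of all genes was not computed, and these comparisons share the Control library. Over all genes, log2 fold changes in mut PDZ+LPS/Control also fell with transcript length (Spearman's rho -0.451).

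In WT PDZ+LPS/LPS, none of the 35 members that reached the count minimum differed by 1.5-fold. By the 2-fold rule 0 members were higher and 0 lower, against 0.635% and 0.733% of all genes, and at 1.5-fold again 0 and 0, against 2.15% and 2.16%. The median log2 fold change was 0.01, with 22 members higher and 13 lower, beside 0.0075 over all genes, of which 52.7% were higher. Members within 0.25 of 0 on the log2 scale numbered 34 of 35 (97.1%), against 85.2% of all genes, which had lower counts as given above. The exception was MYLIP at -0.28, whose interval included 0 (-0.59 to 0.02).

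The members with the largest positive values in WT PDZ+LPS/LPS were ABCA1 at 0.20 (0.11 to 0.29), SREBF1 at 0.16 (0.08 to 0.24), ELOVL6 at 0.13 (0.07 to 0.19), SQLE at 0.13 (0.08 to 0.18) and SCD at 0.13 (0.11 to 0.15). SREBF1 had 2339, 2365, 2638 and 2469 normalized counts in Control, LPS, WT and mut PDZ+LPS, so that its highest library was WT PDZ+LPS. In fatty acid synthesis 6 of 7 genes were higher, with a median of 0.04. These genes are long, and of all members over 4000 nt, 10 of 12 were higher, beside 56.3% of all genes of that length. After the correction for length and GC content described below, 5 of the 7 and 20 of the 35 members were higher, beside 49.9% of all genes. For ELOVL6 and SCD the WT PDZ+LPS library lay between LPS and Control. By role, the medians of the mevalonate pathway, the sterol steps and SREBP regulation were -0.03, 0.03 and 0.03, and those of LXR genes 0.05 over 4 genes. Intervals lay above 0 for 11 members and below 0 for 4 (ACAT2 at -0.06, LSS at -0.08, HSD17B7 at -0.17 and EBP at -0.10). The share of all genes with such intervals was not computed. Over the 4 scalings 3 members changed sign (IDI1, FDPS and NSDHL), all within 0.0083 of 0.

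In mut PDZ+LPS/LPS, most members were lower, and all fatty acid synthesis genes were. By the 2-fold rule 0 members were higher and 0 lower, against 2.05% and 1.90% of all genes. At 1.5-fold 0 were higher and 1 was lower (ACACA), against 7.89% and 9.80%. The median log2 fold change was -0.19, with 10 members higher and 25 lower, beside -0.023 over all genes, of which 47.9% were higher. Counting intervals lay below 0 for 20 members, above 0 for 4 and included 0 for 11. The share of all genes was not computed, and the members' higher counts make their intervals narrower. Over the 4 scalings 20 members were lower in every one and 10 higher in every one.

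The 7 fatty acid synthesis genes ranged from -0.82 to -0.26 with a median of -0.38, and each interval lay below 0. ACACA had 4937, 5043, 5090.3 and 2858 normalized counts in Control, LPS, WT and mut PDZ+LPS. The first 3 libraries were alike and mut PDZ+LPS was lower, at -0.82 (-0.89 to -0.75). FASN had 48343, 52044, 54942 and 39891 normalized counts, with a log2 fold change of -0.38 in mut PDZ+LPS/LPS. SCD had 34673, 31168, 34088 and 23922, also at -0.38. ACLY had 12452, 12424, 12582 and 9574, at -0.38. In each of the 7 genes mut PDZ+LPS was the lowest of the 4 libraries.

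These values have to be read with transcript length, because over all genes the log2 fold changes of mut PDZ+LPS moved with length. Over 11751 genes, length and log2 fold change had a Spearman's rho of -0.603 for mut PDZ+LPS/LPS against 0.0736 for WT PDZ+LPS/LPS, computed across genes, which do not replicate each other. Over the 35 members, which share the same libraries, rho was -0.717 and 0.485. The shortest and the longest decile of genes, with median lengths of 1146 and 9576 nt, had median log2 fold changes of 0.40 and -0.48 in mut PDZ+LPS/LPS. The fatty acid synthesis genes were long, with a median of 5362 nt, against 3010 nt for all members and 3490 nt for all genes, and ACACA measured 9961 nt. The 12 members over 4000 nt had a median of -0.37, with 1 higher and 11 lower, beside -0.29 and 78.7% lower for all genes of that length. The 23 members of 4000 nt or less had a median of -0.04, with 9 higher and 14 lower. All genes of that length had a median of 0.13, and 36.02% of them were lower.

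**Figure D3:**
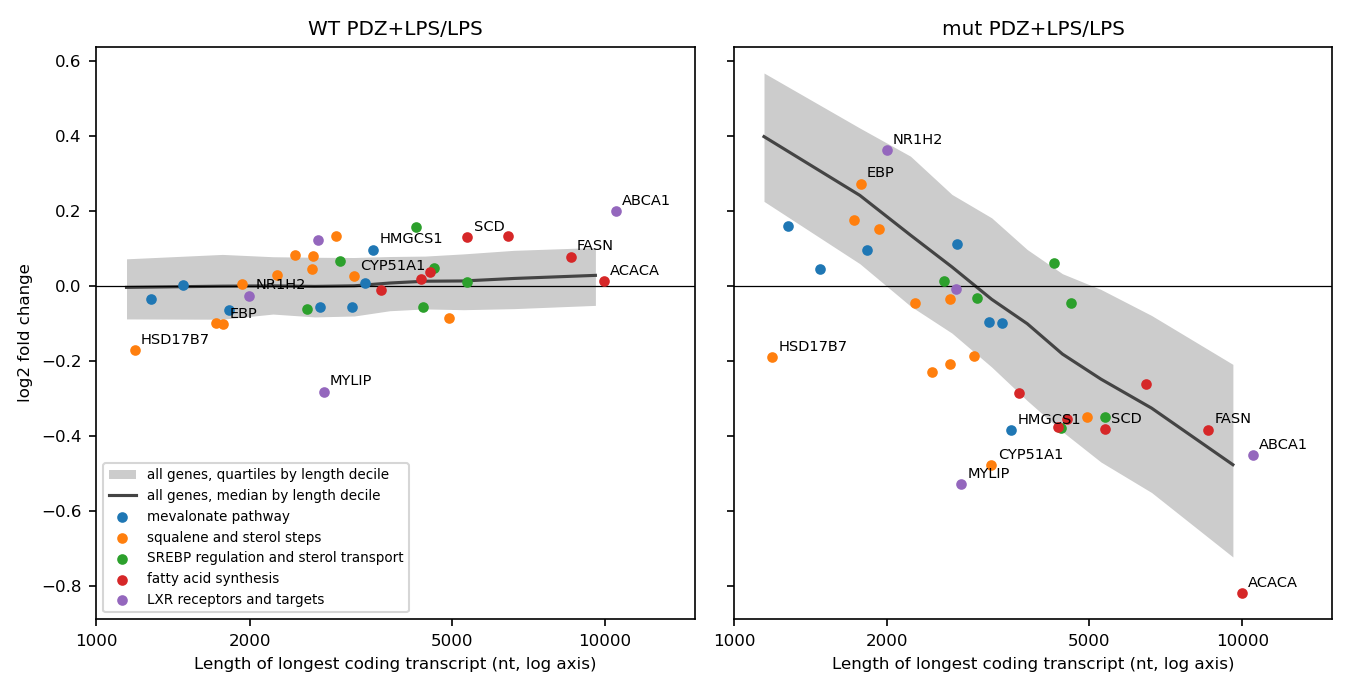
Log2 fold change against the length of the longest coding transcript (nt, log axis) in WT PDZ+LPS/LPS (left) and mut PDZ+LPS/LPS (right), with members as points coloured by role and all genes as the median (line) and quartiles (band) of length deciles. On the right the median of all genes falls from 0.40 to -0.48 with length, CYP51A1 (-0.48) and MYLIP (-0.53) are among the members below the band, and ACACA (-0.82) is the lowest member.

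A lowess trend over length and then GC content was subtracted. The members' median in mut PDZ+LPS/LPS was then -0.17, with 7 higher and 28 lower. That is 20.0% higher, against 49.2% of all genes, whose median was -0.0041. A weak trend of the opposite sign was left, in which shorter genes lay lower. Its rho with length was 0.0917 over all genes and 0.215 over the members, and its part in these values was not tested. The fatty acid set then had a median of -0.18, with 6 of 7 lower. ACACA was at -0.28, FADS2 at -0.34, FASN at -0.24, ACLY at -0.18, FADS1 at -0.12 and SCD at -0.05 on the log2 scale, and ELOVL6 was at 0.13. The correction changed the sign of 13 of the 35 members, and no corrected value lay beyond -0.48 or 0.13.

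Under the correction the median of the mevalonate pathway went from 0.04 to -0.25, and 4 of its 7 genes, MVK, PMVK, MVD and FDPS, changed from positive to negative. The transcripts of these 4 ranged from 1280 nt in PMVK to 2747 nt in MVK, and their GC content from 55.1% in FDPS to 65.6% in MVD. MVD had 1283, 1340.5, 1281 and 1431 normalized counts in Control, LPS, WT and mut PDZ+LPS, with 0.09 before and -0.41 after correction. ACAT2 moved from -0.10 to -0.02 and IDI1 from -0.10 to 0.03. HMGCS1 was lower on both scales, at -0.38 (-0.42 to -0.35) and -0.25, and mut PDZ+LPS was its lowest library, with 10348 normalized counts.

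The squalene and sterol steps had a median of -0.19 as counted and -0.20 after correction, with 8 and then 9 of 11 genes lower. CYP51A1 had 11714, 13178, 13426 and 9462 normalized counts in Control, LPS, WT and mut PDZ+LPS, and was at -0.48 (-0.52 to -0.44) and, corrected, -0.37. LSS was at -0.35 and -0.21, FDFT1 at -0.21 and -0.20, SC5D at -0.23 and -0.27, and HSD17B7 at -0.19 and -0.47. EBP was the highest at 0.27 (0.21 to 0.34), and at 0.06 after correction. TM7SF2 changed from 0.18 to -0.24.

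In SREBP regulation, SREBF2 was at -0.35 (-0.40 to -0.30) and SCAP at -0.38 (-0.47 to -0.29), and after correction at -0.17 and -0.40. SREBF1 (0.06 and -0.04), INSIG1 (-0.03 and 0.05), INSIG2 (0.01 and -0.03) and STARD4 (-0.05 and 0.13) each changed sign with the correction, and all 4 had counting intervals that included 0. In the LXR branch, ABCA1, with the longest transcript of the group at 10494 nt, was at -0.45 (-0.56 to -0.34) and at 0.12 after correction. NR1H2 was at 0.36 and -0.03, and NR1H3 at -0.0094 and -0.08. MYLIP stayed lower on both scales, at -0.53 (-0.87 to -0.20) and -0.48.

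**Figure D4:**
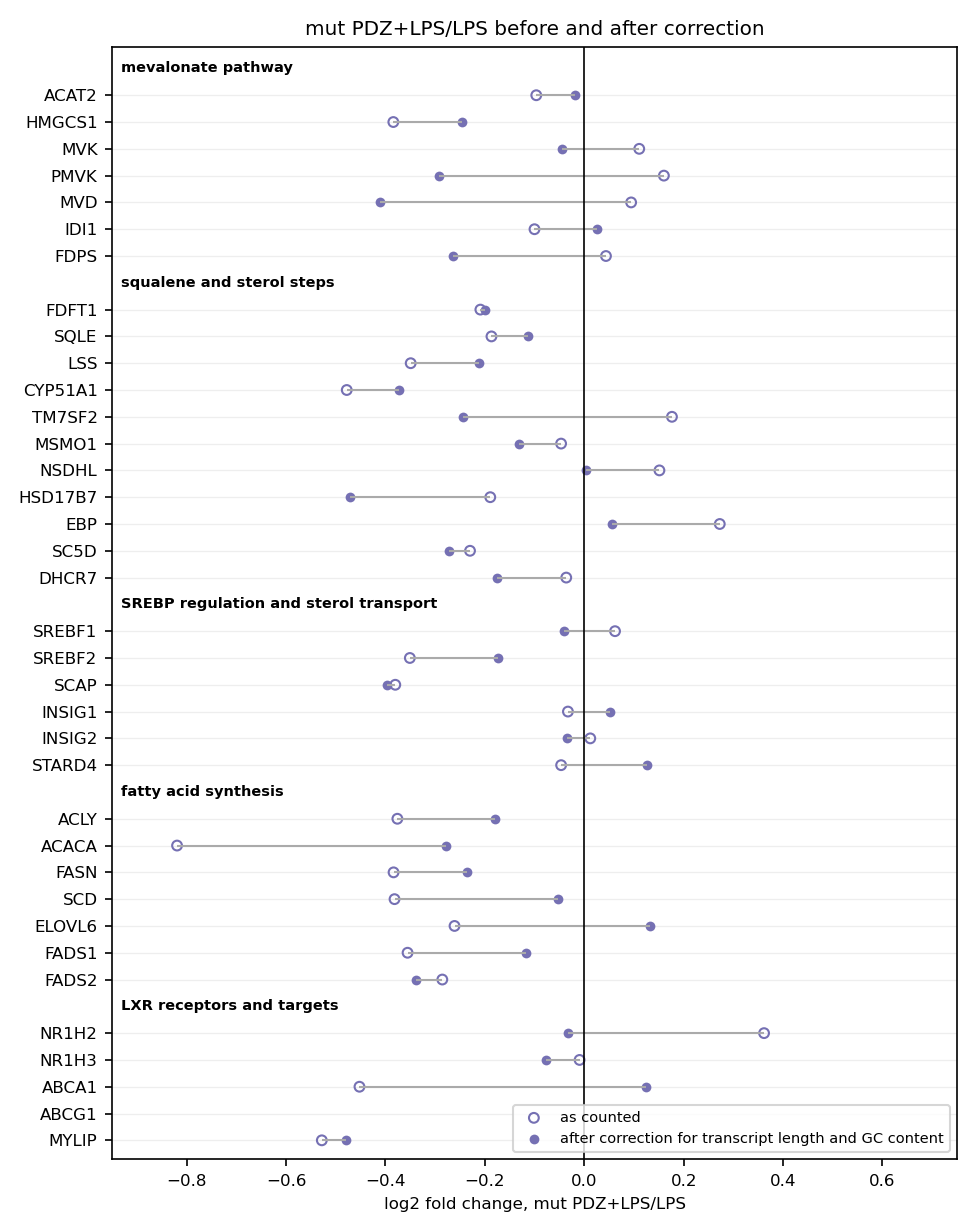
Log2 fold change of the 35 members in mut PDZ+LPS/LPS as counted (open circles) and after correction for length and GC content (filled circles), grouped by role. The median of the fatty acid synthesis genes goes from -0.38 to -0.18 and that of the mevalonate genes from 0.04 to -0.25, and 28 of 35 filled circles lie below 0.

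The peptides were compared directly in mut PDZ+LPS/WT PDZ+LPS, which shares its libraries with the comparisons above. By the 2-fold rule 0 members were higher and 0 lower, against 2.12% and 2.14% of all genes. At 1.5-fold 0 were higher and 2 lower (ACACA at -0.83 and ABCA1 at -0.65), against 8.40% and 10.7%. The median log2 fold change was -0.13, with 9 members higher and 26 lower, beside -0.020 over all genes, of which 48.4% were higher. After correction the members' median was -0.19, with 6 higher and 29 lower, beside -0.0057 over all genes, of which 49.2% were higher. The values with the largest size after correction were CYP51A1 at -0.39 (-0.50 as counted), MVD at -0.35 (0.16), SC5D at -0.34 (-0.31), SCAP at -0.34 (-0.32), FADS2 at -0.34 (-0.27) and HMGCS1 at -0.33 (-0.48). ACACA was at -0.26 and ABCA1 at -0.05 after correction. Any difference between the peptides cannot be told apart from a difference between these libraries.

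Other genes of the same pathways were set beside the members in 4 further lists of 77 symbols in all. The lists of 13 other sterol synthesis genes and 19 other SREBP pathway and target genes, of which 12 and 18 reached the minimum, held 0 genes past 2-fold in any of the 4 comparisons. Their medians in LPS/Control were -0.08 and 0.04, and in WT PDZ+LPS/LPS they were 0.02 and 0.05. The medians in mut PDZ+LPS/LPS were -0.04, with 7 of 12 lower, and -0.28, with 15 of 18 lower, and after correction -0.04 and -0.21. The 21 other fatty acid genes and the 24 sterol trafficking, oxysterol and LXR pathway genes, of which 18 and 19 reached the minimum, had medians of 0.02 and -0.0029 in LPS/Control, then -0.02 and 0.04 with the wild-type peptide against LPS, and -0.20 and -0.09 with the mutant.

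Of these lists, 68 genes met the count rule in each comparison. In LPS/Control 4 of them were 2-fold higher and 1 lower, against 3.46% higher and 1.41% lower of all genes. ELOVL7, a fatty acid elongase, had 106, 553, 451 and 424 normalized counts in Control, LPS, WT and mut PDZ+LPS (log2 2.37, 2.10 to 2.67). CH25H, which makes an oxysterol from cholesterol, had 1, 22, 11 and 21 raw counts, met the count rule only through libraries where it was high, and the interval of its log2 ratio ran from 1.94 to 9.94. The oxysterol hydroxylase CYP7B1 (1.30) and the elongase ELOVL2 (1.13) were higher on 23 Control counts each, and the sterol pump ABCG4 was lower (-1.01) with 49 and 22 counts.

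In mut PDZ+LPS/LPS, 0 genes of these lists were 2-fold higher and 2 lower, against 2.05% and 1.90% of all genes. HACD2, a dehydratase of fatty acid elongation, had 745, 674, 779.6 and 278 normalized counts in Control, LPS, WT and mut PDZ+LPS, at -1.27 (-1.49 to -1.06), and -1.04 after correction. VLDLR, a lipoprotein receptor, had 256, 246, 223 and 121, at -1.01, and at -0.49 after correction on a transcript of 9163 nt. HACD2 thus kept most of its difference after correction, and VLDLR less. In mut PDZ+LPS/WT PDZ+LPS the rule was passed by 1 gene that was lower, HACD2 (-1.48), and 2 that were higher, ABCG4 (1.27) and CH25H (1.08), against 2.14% and 2.12% of all genes, the higher ones on 10 and 11 counts in WT PDZ+LPS.

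Some members share sequence or position with other genes. HSD17B7 has a close copy, HSD17B7P2, with 29 to 56 counts against 502 to 719 for HSD17B7. In GENCODE 29, exons of 11 members overlap those of another listed gene. The largest overlap was that of ACAT2, where 26.5% of exonic bases are shared with SOD2 on the opposite strand, and SOD2 had 4766 counts in Control and 38654 in LPS. FDPS shares 18.6% with RUSC1-AS1, IDI1 14.8% with IDI2-AS1, and FADS1 and FADS2 overlap each other by 4.79% and 4.44% of their bases on opposite strands. Whether the counting used the strand is not given in the sources used here, so the values of these genes are uncertain to that extent. ABCA1, INSIG2, LSS, ACACA and FASN had no such overlap.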

How the data were processed

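BEAS-2B RNA was poly(A)-selected, built into libraries with a directional kit and sequenced as paired ends. After trimming, the authors mapped reads to hg19 with TopHat (per the submitters' processing notes) and deposited raw counts per gene symbol, with no comparison columns. The counting tool, annotation and strand setting are not given in the sources used here. Each library had 19682929 to 25155647 counts, and 95% Clopper-Pearson intervals cover counting error only.

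Samples were grouped by their treatment labels, with 1 library per condition. Median-of-ratios size factors came from DESeq2 1.42.0 in R 4.3.3. Log2 fold changes used normalized counts plus 1. A call needed 2-fold and 16 normalized counts in at least one of the 2 libraries, and medians used 13072 genes whose mean reached 16. TPM, length and GC content came from the longest coding transcript in GENCODE 29, a GRCh38 annotation, matched by symbol (18503 genes). For the correction, lowess trends (span 0.3) were subtracted, over length and then GC content where a length was known (11751 genes). Start-site windows came from RefSeq, GRCh38.p14, and no coordinates were converted between builds. Alternatives were upper-quartile, total-count and TMM scaling (the last with edgeR 4.0.16), 5 as the pseudocount, dropping the expression rule, a rule of 64 normalized counts, that correction, and thresholds of 1.5-fold and 3-fold. Steps were tested on simulated data. The members, lists and alternatives were chosen with earlier results of these data known. All members were named, as were genes of the other lists past 2-fold (at most 5 per comparison) and 3 LPS-response genes. One further leukocyte marker is not reported here. The INSIG1 and INSIG2 windows were chosen after their values were seen. Other steps ran in Python 3.11.15 with scipy 1.17.1, statsmodels 0.14.6, pandas 2.3.3, numpy 2.4.6 and, for plots, matplotlib 3.10.9.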

Additional observations from a re-analysis of the deposited data

Results flagged for a closer look

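In 9 of the 35 members, the WT PDZ+LPS and mut PDZ+LPS libraries lay on opposite sides of the LPS library, with both counting intervals excluding 0. With 1 library per condition, the difference between the peptides was not tested. The same pattern was found in 1043 of all 13072 genes (7.98%). Intervals are narrower for genes with more counts, and among genes whose mean reached 1000 normalized counts, a level chosen after seeing the data, it was found in 773 of 5326 genes (14.5%) and 9 of 31 members. In 8 of the 9, WT PDZ+LPS was higher and mut PDZ+LPS lower than LPS, as in 712 of the 1043 genes. Between the peptides (mut PDZ+LPS/WT PDZ+LPS), the log2 fold change was -0.65 for ABCA1, -0.51 for SCD, -0.48 for HMGCS1, -0.46 for FASN, -0.39 for ELOVL6, -0.39 for FADS1, -0.32 for SQLE and -0.25 for FDFT1. EBP was the reverse, with 0.37. After correction for length and GC content, 7 of the 9 were still on opposite sides, and the exceptions were ELOVL6 and ABCA1. The 9 were picked on uncorrected values, and the corrected count has no interval and no share of all genes beside it. In corrected mut PDZ+LPS/LPS, SCD (-0.05) and EBP (0.06) were near 0. The others of the 7 were HMGCS1 (-0.25), FASN (-0.24), FDFT1 (-0.20), FADS1 (-0.12) and SQLE (-0.11). The corrected values in mut PDZ+LPS/WT PDZ+LPS were -0.33 for HMGCS1, -0.28 for FASN, -0.26 for SQLE, -0.25 for FDFT1, -0.18 for SCD, -0.16 for FADS1 and 0.14 for EBP, against 0.03 for ELOVL6 and -0.05 for ABCA1.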

How the results depend on the processing

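In all, 100 values were recomputed for 12 results under 9 alternative settings. Of these, 93 stayed within 1.5 times the main count or within the interval of the main median. A main count of 0 stayed the same only at 0. A stricter expression rule, a higher fold threshold and a larger pseudocount can only remove calls. Main counts of 0 could not change under them, so those values among the 93 were no test of the results. The interval of a median came from the ranked values of the members, which share libraries and do not replicate each other. It was wide, from -0.35 to -0.03 in mut PDZ+LPS/LPS, so a median could move some way within it. Total-count scaling moved the members' median in LPS/Control to -0.14 (all genes, -0.13), and upper-quartile scaling moved that in mut PDZ+LPS/WT PDZ+LPS to -0.066 (all genes, 0.046). Without the expression rule, 1 member (ABCG1) was 2-fold lower in LPS/Control. With the length and GC correction, and again at 1.5-fold, 2 members were higher in LPS/Control (ABCA1 and INSIG2). At 1.5-fold 1 member was lower in mut PDZ+LPS/LPS (ACACA) and 2 were lower between the peptides (ACACA and ABCA1, mut PDZ+LPS/WT PDZ+LPS). The 1.5-fold counts follow from the lower threshold, and the cause of the others was not tested. No paired analysis was possible because each condition had 1 library, and no library could be left out for the same reason. For counting error alone, intervals included 0 for 11 of 35 members in LPS/Control and for 20 with the wild-type peptide against LPS. The number was 11 with the mutant peptide against LPS, and 7 between the peptides. ABCG1 had too few counts for a narrow interval. The spread between cultures is unknown, so depth cannot show whether any difference lies beyond it.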
